A study of Homo sapiens with 12 samples.

Results

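The U11 overexpression experiment made up 8 of the 12 RNA-seq libraries of the series, all from T24, a human bladder cancer cell line. Of these, 6 libraries were labelled overexpression U11 and came as 2 libraries from each of 3 lines that the titles number 79, 86 and 87. The other 2 libraries were labelled untreated and served as controls. The titles begin with R17018 or R18019, and each of these sets, called batches here, held 1 library of every line and 1 control. According to the methods, T24 cells were transfected with pcDNA-U11, a plasmid carrying U11 amplified from T24 cDNA, and cultures were grown out after monoclonal selection. No empty-vector control or selected clone without U11 is described, so that U11, the plasmid and the growth of a culture from 1 cell cannot be told apart in any comparison with the untreated cells. What the numbers 79, 86 and 87 stand for was not given, and nothing says that the 2 libraries of a line came from separate cultures, so P-values measure the spread between these libraries.

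U11 is a small nuclear RNA of the minor spliceosome, the machine that removes the rare U12-type introns, where it pairs with the 5′ splice site of the intron. It carries a Sm site, to which a ring of Sm proteins binds, and matures in the nucleus with passage through Cajal bodies. Its transcripts carry no poly(A) tail, while the labels name polyA RNA as the starting molecule and the methods name depletion of ribosomal RNA, so the U11 level read from these libraries depends on a step that the sources describe in different ways.

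The U11 sequence is shown because it is the RNA that was introduced. In the hg38 genome it lies on the plus strand at chr1:28648600-28648733, 134 bases long, and the capitals, which start at base 88, mark the Sm site.
RNU11: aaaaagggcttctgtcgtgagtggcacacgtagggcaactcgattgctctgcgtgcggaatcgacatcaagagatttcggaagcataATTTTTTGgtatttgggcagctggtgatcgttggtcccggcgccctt

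The 3 lines held very different amounts of U11. Levels are given as TPM, a read density scaled for gene length and library total, and summed over the 2 entries for RNU11. U11 was at 0.0334 and 0.623 TPM in the controls of R17018 and R18019, at 0.183 and 0.412 TPM in line 79, at 3.98 and 3.72 TPM in line 86 and at 61.9 and 53.6 TPM in line 87. Line 79 therefore lay between the controls, while lines 86 and 87 lay above both. The controls had a mean of 0.328 TPM ± 0.417 (SD, n = 2), and the 6 libraries of the lines had a mean of 20.6 TPM ± 28.9 (SD). This difference did not exceed the spread between libraries (exact permutation test, two-sided, P = 0.393, where 0.0357 is the smallest P this design allows). The libraries of line 79 are kept under their label below, and statements on 3 lines include a line whose U11 in these libraries was not above both controls.

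**Figure D1:**
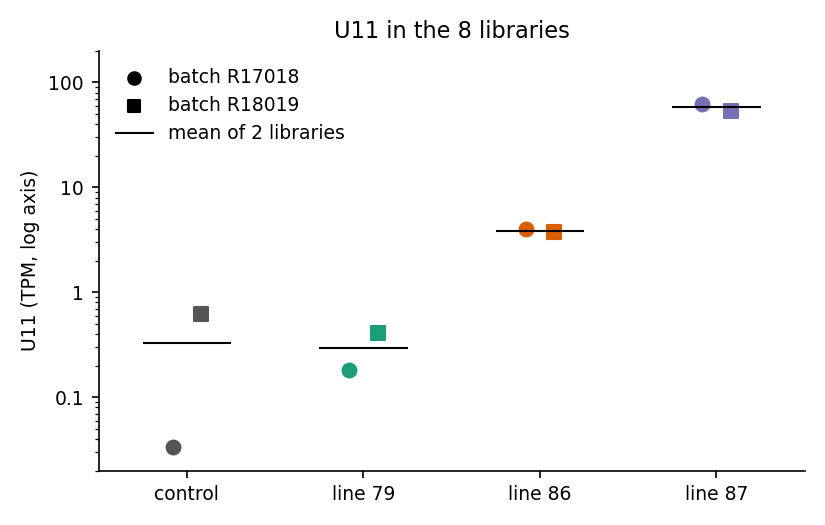
U11 in TPM on a log axis in the 8 libraries, by group, with circles for batch R17018, squares for batch R18019 and a bar at the mean of 2 libraries. Both libraries of line 79 lie between the controls, at 0.183 and 0.412 TPM, and line 87 reaches 61.9 TPM.

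The 8 libraries resembled each other in depth and make-up. Between 9.07 and 15.3 Gb were aligned to listed genes, estimated as coverage times length, and 14692 to 14861 genes reached 1 TPM. Mitochondrial genes took 5.49 to 6.36% of the TPM. Of the epithelial markers, KRT7 lay between 3503 and 6703 TPM, KRT8 between 1080 and 1458 TPM, and KRT18 between 547 and 724 TPM. KRT19 lay between 193 and 321 TPM, EPCAM was low at 0.95 to 2.32 TPM, and E-cadherin, CDH1, stayed at or under 0.155 TPM. Of the mesenchymal markers, VIM lay between 1939 and 2887 TPM and CDH2 between 143 and 175 TPM. ZEB1 lay between 9.27 and 21.9 TPM, SNAI2 between 11.1 and 34.8 TPM, and TWIST1 stayed at or under 0.05 TPM. Of the urothelial markers, PPARG (44 to 54.5 TPM), FOXA1 (25.9 to 50.9 TPM) and GATA3 (6.31 to 17.4 TPM) were read in all 8 libraries. KRT5, KRT20 and UPK3A were listed at 0 in all 8, and UPK1A, UPK1B and UPK2 stayed at or under 0.437 TPM. Of the leukocyte markers, LYZ, the gene of lysozyme, was listed at 0 in the 4 libraries of R17018 and lay between 1.55 and 1.68 TPM in the 4 libraries of R18019, which separates the batches and not the groups.

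Overexpression was first compared with the controls as 6 libraries against 2, over the 15768 genes of 60504 listed that reached 1 TPM in 2 or more libraries. limma was run on log2(TPM+1), and log2 fold changes below are on this scale, on which changes of low genes are understated. At the thresholds of the study, a 1.5-fold difference with P under 0.05, 304 genes (1.93%) were called, 121 of them up-regulated (0.767%) and 183 down-regulated (1.16%). At an adjusted P under 0.05 (limma, Benjamini-Hochberg) and the same fold, 26 genes (0.165%) remained, 8 up-regulated and 18 down-regulated. With either control left out, 1 control remained and most of the 26 genes no longer passed. The 2 untreated libraries of another batch of the series differed in make-up. Their 10 highest genes took 49.6 and 48.5% of the TPM, against at most 7.56% in the 8 libraries. With these 2 added as controls, the median of all genes moved to 0.39 and 5 genes passed. IFI6, TUBA1A, HCP5, VCAN, CTD-2369P2.12, CXCL1 and CXCL2 were then no longer called even without the adjustment. The 8 up-regulated genes were ESM1, BCL2A1, ABI3BP, CXCL8, GOPC, CCDC80, GSTM3 and MIEF1. This comparison counts both libraries of a line as independent. With the mean of each line as 1 sample 6 of the 26 genes were kept, and ESM1, BCL2A1, ABI3BP, CXCL8, GOPC, CCDC80, HCP5 and TGFB2 no longer passed the adjusted P, at 0.069 to 0.201 (limma). With the batch as a replicate block 21 were kept, and BCL2A1 and CXCL8 were at adjusted P of 0.0839 and 0.0627 (limma). Of the 18 down-regulated genes, 11 reached 1 TPM in the controls alone and so passed the filter through the group where they were high, XAF1, GBP4 and SDC2 among them, and they carry no weight as a count. Among the 18 were the interferon-induced IFI6 and XAF1, the guanylate-binding protein gene GBP4, the growth factor TGFB2, the tubulin TUBA1A and the syndecan SDC2.

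The comparison then turned to genes that all 3 lines moved the same way. In 1556 genes (9.87%) all 6 overexpression libraries lay beyond both controls, above them in 729 (4.62%) and below them in 827 (5.24%). Most of these shifts were small, and the line nearest the controls differed by a median of 0.18 on the log2 scale for the genes above and -0.21 for those below. When the mean of every line also had to be 1.5-fold from the control mean, 38 genes lay above (0.241%) and 75 below (0.476%). No control reached 1 TPM in 9 of the 38, and no overexpression library did in 21 of the 75. The members just inside this limit were ROBO4 and GSTM3, whose nearest line was at 0.59, and those just outside were FUT8-AS1 at 0.58 and RABL2B at -0.58. Of the 113 genes, 110 were also among the 304 called by limma. Annotation by GENCODE release 44 gave 26 of the 38 and 57 of the 75 as protein coding (68.4% and 76.0%), against 75.8% of all genes tested.

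The 12 genes whose nearest line rose furthest are described first. ESM1, which encodes the secreted proteoglycan endocan, was at 15.2 and 16.2 TPM in the controls, 68.1 and 74.4 TPM in line 79, 48.1 and 51.1 TPM in line 86 and 55.7 and 59.3 TPM in line 87. No line overlapped with the controls, and line 79 was highest. The log2 fold change was 1.84 ± 0.16 (SE) with an adjusted P of 0.00323 (limma), and the lines taken singly were at 2.11, 1.60 and 1.81. BCL2A1, an anti-apoptotic member of the BCL2 family, was at 2.02 and 2.19 TPM in controls, compared with 15.1 and 13.5, 7.01 and 9.02, and 9.61 and 8.97 TPM in lines 79, 86 and 87, a log2 fold change of 1.85 ± 0.25 (SE, limma adjusted P = 0.0283). ABI3BP, an extracellular matrix protein, was at 9.17 and 9.89 TPM in the controls and between 24.1 and 43.7 TPM in the lines, with line 86 highest (1.74 ± 0.20, limma adjusted P = 0.0140).

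GOPC stood out for how closely the lines matched. This Golgi protein, which takes part in membrane protein traffic, was at 13.2 and 11.1 TPM in controls, compared with 25 and 27.2, 25.4 and 27.3, and 24.1 and 26.1 TPM in lines 79, 86 and 87. The line means were 1.05, 1.07 and 1.00 above the controls on the log2 scale, and the overall change was 1.04 ± 0.10 (SE, limma adjusted P = 0.00407). CCDC80, another matrix protein, showed the same evenness, from 11.7 and 13.2 TPM in the controls to between 20.6 and 24.2 TPM in the 6 libraries (0.83 ± 0.10, limma adjusted P = 0.0146). GSTM3, a glutathione transferase, moved from 13.6 and 12.3 TPM to between 19.5 and 22.6 TPM. MIEF1, a receptor of the mitochondrial fission machinery, moved from 22.9 and 21.3 TPM to between 36.9 and 48.7 TPM, with line 87 lowest.

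Other genes of the 12 rose in all 3 lines but to unequal levels. SPOCK1, which encodes the proteoglycan testican, was at 39.0 and 41.8 TPM in the controls, 299 and 320 TPM in line 79, 66.9 and 82.0 TPM in line 86 and 64.2 and 79.0 TPM in line 87. Line 79 carried most of that change, and the call of the 6 against 2 comparison (adjusted P = 0.831, limma) was not kept under 11 of the alternatives tried. MYO1D, an unconventional myosin, was ordered the other way, with 8.07 and 8.62 TPM in the controls, 15.6 and 15.8 TPM in line 79, 21.6 and 19.4 TPM in line 86 and 33.0 and 28.2 TPM in line 87. MXRA7, a gene associated with matrix remodelling, lay between 39.0 and 61.6 TPM against 24.8 and 26.5 TPM. POPDC3, a membrane protein of the Popeye family, lay between 5.87 and 10.6 TPM against 2.73 and 3.53 TPM. MIR503HG, the host transcript of a microRNA cluster, lay between 12.9 and 19.9 TPM, but its controls were at 5.30 and 9.49 TPM, so that the rise was 1.49 in R17018 and 0.78 in R18019 on the log2 scale. None of these 5 genes passed the adjusted P.

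**Figure D2:**
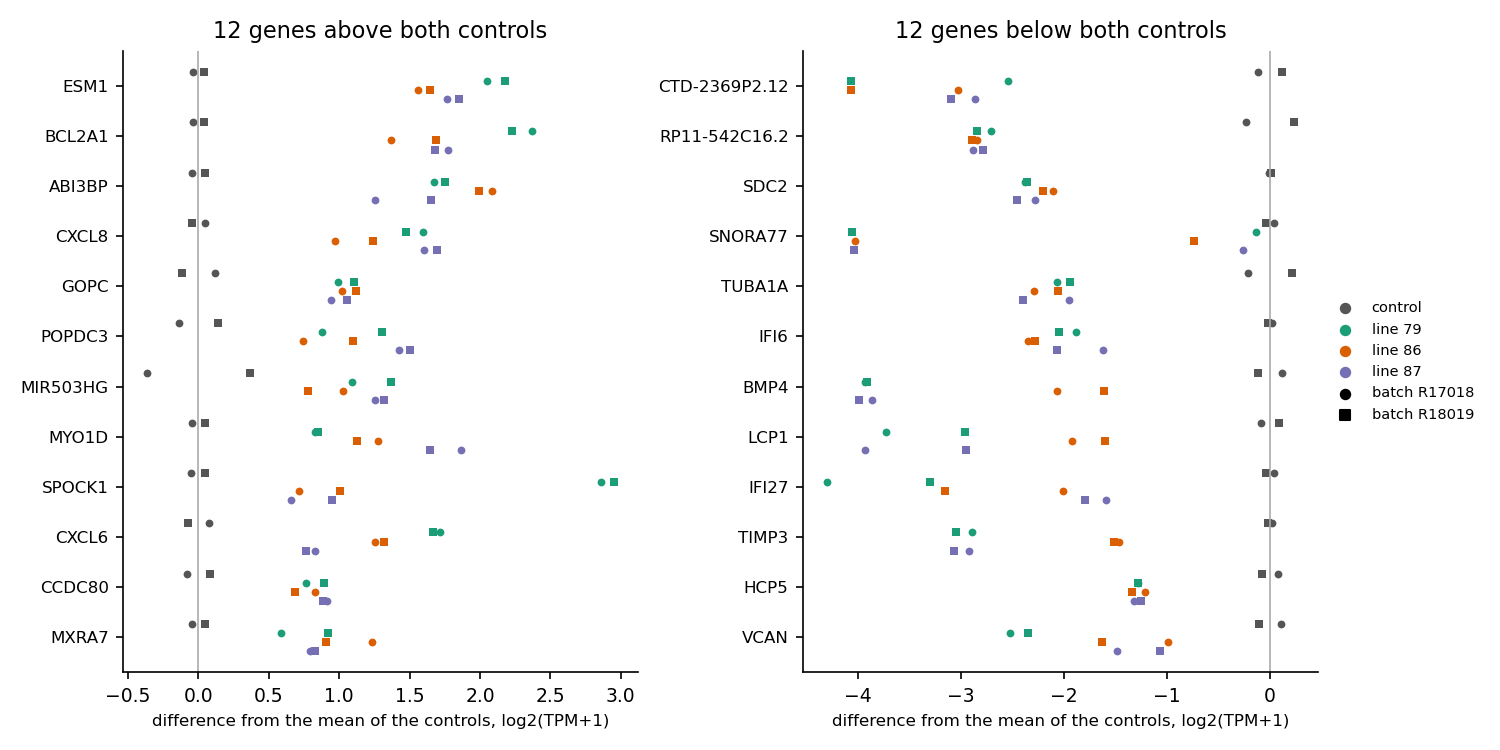
Difference of each library from the mean of the 2 controls on the log2(TPM+1) scale, for the 12 genes above and the 12 below both controls with the largest change in their nearest line. Colours mark the controls and lines, circles batch R17018 and squares batch R18019. GOPC, CCDC80, SDC2, TUBA1A and HCP5 have their 6 overexpression libraries close together, whereas SPOCK1, BMP4, TIMP3 and IFI27 spread by line, and SNORA77 splits the 2 libraries of every line. The overexpression libraries lie near the floor in SDC2, where this scale draws values together.

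Among the genes that fell, the most even were a tubulin, a syndecan and long non-coding RNAs. TUBA1A, an alpha tubulin, was at 248 and 334 TPM in the controls, 68.1 and 74.3 TPM in line 79, 57.9 and 68.2 TPM in line 86 and 73.6 and 53.8 TPM in line 87. The mean was 4.41-fold lower (log2 fold change -2.12 ± 0.15, limma adjusted P = 0.00124). SDC2, a heparan sulfate proteoglycan of the cell surface, was at 4.98 and 5.08 TPM in the controls and no higher than 0.40 TPM in the 6 libraries (log2 fold change -2.30). HCP5, a long non-coding RNA transcribed within the HLA class I region, was at 9.69 and 8.62 TPM in the controls and between 3.02 and 3.37 TPM in all 6 libraries, so that each line was at -1.28. HSPE1, the co-chaperonin of mitochondria, moved from 295 and 350 TPM to between 176 and 200 TPM (-0.75 ± 0.08, limma adjusted P = 0.0140).

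RP11-542C16.2 and CTD-2369P2.12, the non-coding genes at the head of the list, overlap other genes of their strand. RP11-542C16.2 (chr17:7312661-7319174, minus strand) lies over GPS2 and NEURL4, and was at 5.31 and 7.77 TPM in controls, against most 0.137 TPM in the lines. CTD-2369P2.12 (chr19:10315471-10320678, minus strand) lies over RAVER1 and FDX1L, and was at 14.5 and 17.2 TPM in controls, against most 1.88 TPM in the lines. How reads of overlapping genes were divided was not given, so the assignment of these values to 1 gene is uncertain. SNORA77, a small nucleolar RNA inside RANBP1, counts among the 12 by its line means, but it was at 15.3 and 0.072 TPM in line 79, 0.096 and 9.70 TPM in line 86 and 13.9 and 0.088 TPM in line 87, against 17.3 and 16.3 TPM in the controls. The libraries of 1 line disagreed by as much as any line did from the controls, and the gene was not called (adjusted P = 0.90, limma).

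A further group fell deeply in lines 79 and 87 and less in line 86. BMP4, a ligand of the bone morphogenetic protein pathway, was at 16.5 and 13.9 TPM in the controls, 0.062 and 0.072 TPM in line 79, 2.85 and 4.30 TPM in line 86 and 0.109 and 0.019 TPM in line 87. TIMP3, an inhibitor of matrix metalloproteinases, was at 7.48 and 7.27 TPM in the controls, 0.130 and 0.011 TPM in line 79, 2.04 and 1.93 TPM in line 86, and 0.106 TPM and listed at 0 in line 87. LCP1, the actin-bundling protein plastin, was at 13.4 and 15.1 TPM in the controls, at most 0.974 TPM in lines 79 and 87, and at 3.03 and 4.02 TPM in line 86. In each of these genes every library of line 86 lay between the controls and the other lines, and the test of the difference among lines gave limma adjusted P of 0.00173, 0.00195 and 0.0412. DSP, a desmosomal plaque protein, was arranged in the same way, at 10.4 and 9.60 TPM in the controls, 1.37 and 1.37 TPM in line 79, 5.31 and 4.65 TPM in line 86 and 1.21 and 1.56 TPM in line 87. VCAN, the matrix proteoglycan versican, was lowest in line 79, at 0.261 and 0.425 TPM against 6.77 and 5.74 TPM in the controls and 1.34 to 2.64 TPM in the other lines.

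Keratin 17 and gamma smooth-muscle actin showed that other lines could be lowest. KRT17 was at 49.2 and 40.0 TPM in the controls, 15.0 and 10.1 TPM in line 79, 19.4 and 22.7 TPM in line 86 and 2.93 and 2.02 TPM in line 87. ACTG2 was at 32.6 and 31.2 TPM in the controls, 14.7 and 12.9 TPM in line 79, 4.14 and 3.23 TPM in line 86 and 6.86 and 6.18 TPM in line 87. Over the 113 genes no line prevailed. Line 79 lay farthest from the controls in 13 of 38 genes above and 27 of 75 below, line 86 in 13 and 26 and line 87 in 12 and 22. Over all genes tested, lines 79, 86 and 87 lay farthest in 41.2%, 26.2% and 32.6%. The order of the lines by U11, with 79 lowest and 87 highest, was followed by expression in 5 of the 38 genes and reversed in 4, and the same counts were 12 and 4 of the 75. Over all genes tested, 18.2% rose in this order and 15.9% fell.

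Differences among the 3 lines were tested by a moderated F test in a fit of 4 groups, which uses the spread of the controls but not their level. It called 2530 genes (16.0%) at a limma adjusted P under 0.05, including 12 of the 38 genes above the controls (31.6%), 16 of the 75 below (21.3%) and 4 of the 26 that passed the adjusted P. The count fell to between 1222 and 1593 when any 1 of the 6 overexpression libraries was left out, lowest without the R17018 library of line 79. Against the controls, 1254 genes (7.95%) were called in line 79, 568 (3.60%) in line 86 and 809 (5.13%) in line 87 at P under 0.05 and 1.5-fold. The 3 counts share the same controls. The endothelial cadherin CDH5 shows how far a line could differ, at 34.1 and 32.2 TPM in line 79 against 3.43 and 3.08 TPM in the controls and 4.17 to 5.28 TPM in lines 86 and 87, while the endothelial markers PECAM1, VWF and CLDN5 stayed at or under 0.30 TPM in all 8 libraries. Tenascin C, TNC, was at 10.3 and 10.03 TPM in line 79, 5.45 and 3.75 TPM in line 86, and listed at 0 and at 0.019 TPM in line 87, against 12.3 and 11.7 TPM in the controls. Another matricellular protein, THBS1, was at 97.0 and 95 TPM in line 79, 183 and 172 TPM in line 86 and 48.6 and 48.2 TPM in line 87, against 202 and 189 TPM.

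The CXC chemokines, a family of small chemoattractants most of whose members here draw neutrophils through the receptor CXCR2, were mostly higher in the lines. The study chose this family on these samples, so its direction is no independent evidence. Of 12 listed genes 7 were tested, 5 were called up-regulated (71.4%, against 0.767% of all genes), none was called down-regulated, and all 6 libraries lay above both controls in the same 5 (against 4.62% of all genes). The median log2 fold change of the 7 was 0.70, against -0.02 over all genes tested. CXCL8, interleukin 8, was at 111 and 104 TPM in the controls, 327 and 301 TPM in line 79, 212 and 256 TPM in line 86 and 329 and 350 TPM in line 87, a mean 2.75-fold higher (1.43 ± 0.18, limma adjusted P = 0.0202). CXCL6 was at 36.4 and 32.6 TPM in controls, compared with 115 and 112, 83.5 and 87.3, and 62.0 and 59.0 TPM in lines 79, 86 and 87. CXCL1, the most abundant of the family, was at 283 and 278 TPM in controls, compared with 526 and 534, 465 and 477, and 374 and 379 TPM. CXCL6 and CXCL1 thus fell into the same order, line 79 above 86 above 87, which is the reverse of the order of U11, and their tests among the lines gave limma adjusted P of 0.00253 and 0.00433.

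CXCL3 and CXCL2 were less abundant and changed by smaller amounts. CXCL3 was at 5.53 and 4.71 TPM in the controls and between 7.49 and 14.8 TPM in the lines, and CXCL2 was at 6.62 and 6.23 TPM and between 8.42 and 12.8 TPM. Neither they nor CXCL6 and CXCL1 passed the adjusted P over all genes (limma adjusted P of 0.475, 0.356, 0.237 and 0.255). CXCL5 was highest in line 86, at 5.60 and 6.61 TPM against 2.21 and 1.66 TPM in the controls and 1.86 to 2.45 TPM in the other lines, and was not called. CXCL16, a transmembrane chemokine, overlapped with the controls.

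The promoters of 3 of these chemokines are printed because every CXC chemokine of the list that was tested and had a promoter in the RefSeq table, 6 of 6, held the same kappa B sequence, at which NF-kappa B proteins are known to bind. Each run is the 250 bases before the RefSeq start in GRCh38.p14, read on the strand of the gene, and the capitals mark GGAATTTCC. The search covered both strands (GGAATTTCC and GGAAATTCC), and 0.413% of 35116 promoters of this length held a match.
CXCL8, chr4:73740319-73740568, plus strand: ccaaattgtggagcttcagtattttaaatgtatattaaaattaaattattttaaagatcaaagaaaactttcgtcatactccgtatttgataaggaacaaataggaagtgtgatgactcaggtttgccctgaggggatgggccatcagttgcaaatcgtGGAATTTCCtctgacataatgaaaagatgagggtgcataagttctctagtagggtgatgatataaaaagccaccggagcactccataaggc
CXCL1, chr4:73869143-73869392, plus strand: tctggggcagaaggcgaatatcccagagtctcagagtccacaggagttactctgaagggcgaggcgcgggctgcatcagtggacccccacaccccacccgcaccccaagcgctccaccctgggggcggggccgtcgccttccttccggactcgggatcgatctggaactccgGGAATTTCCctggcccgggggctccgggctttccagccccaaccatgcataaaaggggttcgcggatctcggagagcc
CXCL6, chr4:73836428-73836677, plus strand: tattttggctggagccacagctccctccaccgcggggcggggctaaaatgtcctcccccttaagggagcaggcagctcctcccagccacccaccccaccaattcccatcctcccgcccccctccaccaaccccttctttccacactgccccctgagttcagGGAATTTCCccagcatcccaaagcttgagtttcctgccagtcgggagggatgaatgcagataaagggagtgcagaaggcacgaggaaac
The match began 91, 78 and 89 bases before the start in CXCL8, CXCL1 and CXCL6. Among the 34 promoters found for tested genes that belong to the NF-kappa B and TNF list, 5 held it (14.7%), namely NFKBIA, ICAM1, REL, NFKBIZ and NFKB1, and none of these 5 genes was called. A match is a stretch of letters, and binding was not measured.

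Of 41 tested genes on the wider NF-kappa B and TNF list, 3 were called up-regulated (7.32%, against 0.767% of all genes) and none down-regulated. The median log2 fold change was 0.04, and the medians in lines 79, 86 and 87 were -0.15, 0.06 and 0.23. The 3 were BCL2A1, the prostaglandin synthase PTGS2 and the protease MMP3. PTGS2 was at 3.54 and 2.88 TPM in the controls, 9.15 and 9.12 TPM in line 79, 4.94 and 4.85 TPM in line 86 and 11.4 and 12.4 TPM in line 87. MMP3 was low throughout, listed at 0 and at 0.111 TPM in the controls and at most 1.30 TPM in the lines, so it passed the filter through line 87 alone. MMP3 was high there, so it carries no weight in the share of 7.32%. CFLAR, an inhibitor of death receptor signaling, lay above both controls in all 6 libraries, between 43.1 and 59.5 TPM against 33.7 and 35.8 TPM, but the overall change was under the 1.5-fold limit.

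The interferon response list held the largest number of down-regulated genes of the 17 lists examined. Cells that sense interferon induce these genes, and their products restrict viruses and present antigens. All 17 lists, above and below, were chosen with earlier results of these data known. Their directions and shares are therefore no independent evidence. Of 56 tested genes 14 were called down-regulated and none up-regulated, against 1.16% and 0.767% of all genes, and all 6 libraries lay below both controls in 24 (42.9%, against 5.24% of all genes). The median log2 fold change was -0.42, and 50 of 56 genes were lower. With either control left out 9 genes were called, and with line 87 left out 27.

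IFI6, a mitochondrial antiviral protein, changed most evenly. It was at 155 and 150 TPM in the controls, 40.6 and 36.1 TPM in line 79, 29.1 and 30.7 TPM in line 86 and 48.9 and 35.7 TPM in line 87, a mean 4.14-fold lower (-2.04 ± 0.18, limma adjusted P = 0.00323). XAF1, a pro-apoptotic protein, fell from 4.08 and 4.94 TPM to at most 0.734 TPM, and like SDC2 it reached the filter on low values through the controls alone. These 2 genes alone of the list passed the adjusted P. IFI27 had the largest fall of the list, from 246 and 233 TPM in the controls to 11.2 and 23.4 TPM in line 79, 58.8 and 26.1 TPM in line 86 and 78.8 and 68.4 TPM in line 87.

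Many genes of this list were lowered far more in lines 79 and 86 than in line 87. The medians of the 56 genes were -0.49, -0.64 and -0.12 in lines 79, 86 and 87, and 48, 49 and 36 genes were lower than in the controls. The dynamin-like antiviral protein MX1 was at 27.4 and 24.5 TPM in the controls, 3.16 and 4.93 TPM in line 79, 5.07 and 4.85 TPM in line 86 and 13.0 and 13.4 TPM in line 87. BST2, tetherin, was at 184 and 188 TPM in controls, compared with 46.6 and 45, 86.7 and 86.0, and 158 and 157 TPM in the lines. In IFIT1, which binds viral RNA, line 87 came close to the controls, at 63.1 and 68.2 TPM against 69.2 and 74.2 TPM, whereas the other lines lay between 27 and 31.6 TPM. The test among lines called 30 of the 56 genes (53.6%, against 16.0% of all genes), with limma adjusted P of 0.00463, 0.000134 and 0.00128 for MX1, BST2 and IFIT1.

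The remaining called genes of the list were OAS1, OAS2 and OAS3, which make the second messenger that activates RNase L, EPSTI1, IFI44L, IFITM1, IRF1 and IRF9. OAS2 was at 22.8 and 23.1 TPM in the controls, 7.04 and 8.60 TPM in line 79, 4.64 and 5.57 TPM in line 86 and 12.8 and 12.8 TPM in line 87. IFITM1 differed by batch inside lines 86 and 87, at 26.6 and 59.1 TPM and at 29.8 and 63.3 TPM, and it overlaps IFITM2 on the same strand. IRF9, a subunit of the factor that drives the list, was at 29.4 and 25.8 TPM in controls, compared with 11.5 and 10.6, 14 and 12.6, and 14.3 and 25.9 TPM in the lines, so that 1 library of line 87 reached the control of its batch. STAT2 moved little, between 19.4 and 24.9 TPM against 25.3 and 25.9 TPM, and was not called.

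**Figure D3:**
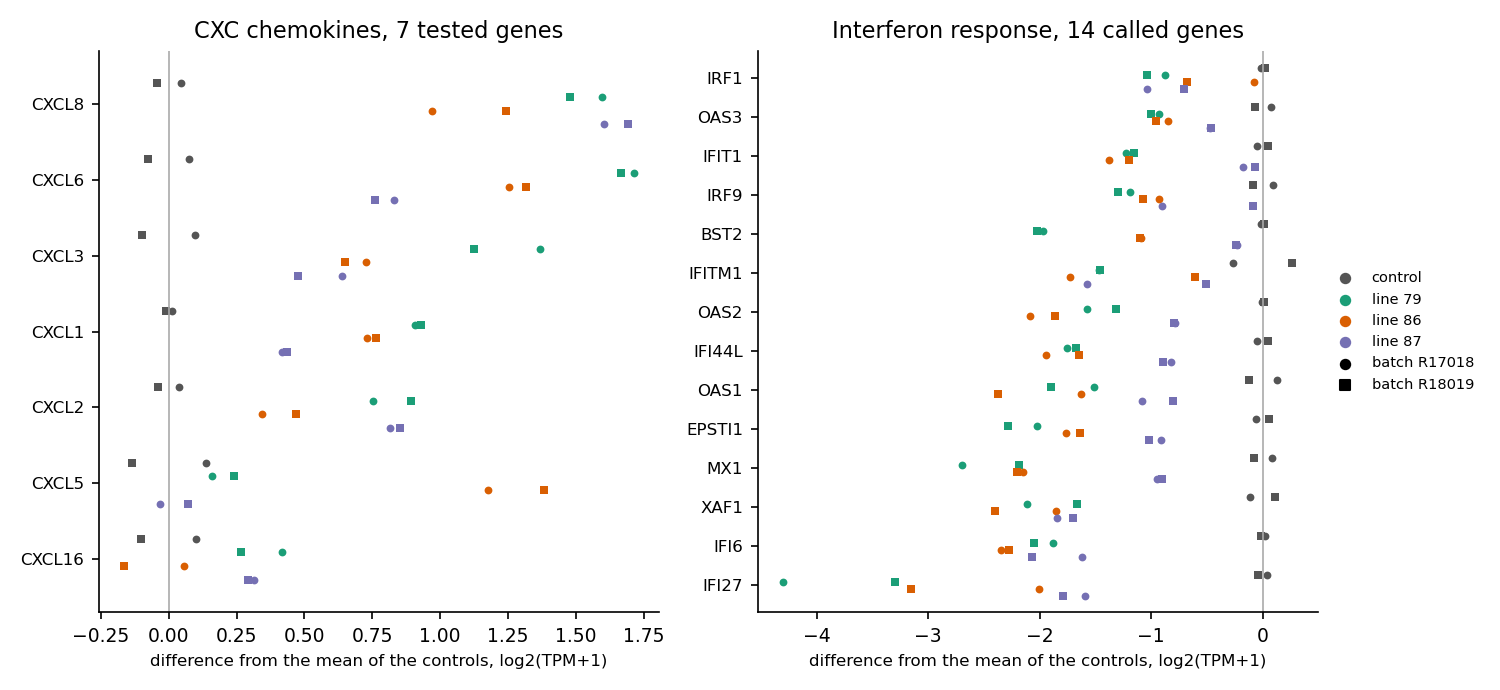
Difference of each library from the mean of the controls on the log2(TPM+1) scale, for the 7 tested CXC chemokines and the 14 called genes of the interferon response list. Colours mark the controls and lines, circles batch R17018 and squares batch R18019. CXCL1 and CXCL6 fall in the order 79, 86, 87, and in BST2, IFIT1 and MX1 line 87 lies nearest the controls.

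The promoters of IFI6 and IFI27 are printed because both hold repeats of the interferon-stimulated response element core, GAAANNGAAA (or TTTCNNTTTC on the other strand), where N is any base. Windows and build are as above, and capitals mark each match.
IFI6, chr1:27672193-27672442, minus strand: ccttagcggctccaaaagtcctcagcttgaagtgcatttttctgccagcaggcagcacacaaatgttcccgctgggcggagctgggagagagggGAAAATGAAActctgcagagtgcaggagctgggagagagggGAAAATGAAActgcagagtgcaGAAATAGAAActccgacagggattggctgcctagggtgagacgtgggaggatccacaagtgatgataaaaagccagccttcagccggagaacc
IFI27, chr14:94110486-94110735, plus strand: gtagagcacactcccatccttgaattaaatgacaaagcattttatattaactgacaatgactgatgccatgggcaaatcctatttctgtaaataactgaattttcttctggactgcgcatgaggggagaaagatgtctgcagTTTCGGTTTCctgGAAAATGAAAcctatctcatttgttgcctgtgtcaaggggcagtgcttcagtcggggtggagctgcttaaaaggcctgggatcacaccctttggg
IFI6 held 3 matches, beginning 156, 115 and 93 bases before the start, and IFI27 held 2, at 108 and 95 bases. Over all promoters 3.02% held a match, over the 39 promoters found for tested interferon genes 19 did (48.7%), and over the 13 found for called ones 8 did (61.5%). None of the 6 CXC chemokine promoters held the interferon element, and of the called interferon genes OAS3 alone held the kappa B sequence.

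HLA class I and peptide loading genes, carry peptides to the cell surface. Of 21 tested genes 3 were called down-regulated (14.3%, against 1.16% of all genes), HLA-B, HLA-C and HLA-F, none was called up-regulated, and 20 of 21 were lower with a median of -0.19. HLA-B was at 340 and 331 TPM in the controls, 110 and 105 TPM in line 79, 117 and 127 TPM in line 86 and 182 and 180 TPM in line 87 (-1.32 ± 0.22, limma adjusted P = 0.0967). HLA-C was at 187 and 193 TPM in the controls and between 88.3 and 148 TPM in the lines. HLA genes are highly alike and polymorphic, so the division of reads between them is uncertain. Of 4 tested leukocyte genes, LCP1 and CD74 were called down-regulated (50%, against 1.16% of all genes). The other 2 were higher, 1 of them above both controls in all 6 libraries. CD74, the invariant chain of HLA class II, was at 14.4 and 13.2 TPM in the controls, 3.16 and 3.33 TPM in line 79, 4.01 and 4.43 TPM in line 86 and 10.8 and 9.52 TPM in line 87.

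Ligands and inhibitors of the TGF-beta and BMP pathways moved in both directions. Of 38 tested genes 2 were called up-regulated and 2 down-regulated (5.26% each way, against 0.767% and 1.16% of all genes), and the median was 0.07. TGFB2, a ligand, was at 27.2 and 26.9 TPM in the controls, 14 and 15.2 TPM in line 79, 11.2 and 11.9 TPM in line 86 and 11.9 and 14 TPM in line 87, a mean 2.07-fold lower (-1.01 ± 0.13, limma adjusted P = 0.0202). BMP4 was the other that fell. FST, follistatin, an extracellular inhibitor of activins, was at 143 and 149 TPM in the controls, 247 and 263 TPM in line 79, 231 and 241 TPM in line 86 and 363 and 362 TPM in line 87, and LTBP1, which holds latent TGF-beta in the matrix, lay between 3.88 and 6.51 TPM against 2.45 and 3.10 TPM. The receptor TGFBR2 differed by less than 1.5-fold, between 131 and 145 TPM against 121 and 120 TPM.

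Growth factor, matrix and protease genes were called at shares of 10.3%, 11.1% and 6.67%, against 1.93% of all genes. Of 29 growth factor and angiogenesis genes, ESM1 and the receptor NRP2 were called up-regulated, and IGFBP5, a binding protein of insulin-like growth factors, was called down-regulated. NRP2 was at 6.17 and 5.25 TPM in the controls and between 9.63 and 12.6 TPM in the lines. IGFBP5 was at 476 and 446 TPM in the controls, 120 and 115 TPM in line 79, 342 and 330 TPM in line 86 and 164 and 163 TPM in line 87, another gene in which line 86 lay nearest the controls. Of 36 collagen, laminin and matrix genes 2 were called in each direction, ABI3BP and SPOCK1 up and TIMP3 and VCAN down, with a median of -0.07. MMP3 was the 1 call among 15 proteases. It passed the filter through line 87 alone, where it was high, so the share of 6.67% carries no weight. "Passed at any fold" below means an unadjusted limma P under 0.05 without the 1.5-fold limit. Of all 15768 genes tested, 946 passed at any fold. None of 13 integrins was called by limma, and 1 passed at any fold.

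Minor spliceosome, p53 and proliferation lists held no called gene, which in lists of this size is near the 1.93% of all genes that were called. The counts at any fold below stand beside 946 of the 15768 genes tested. All 12 listed protein components of the minor spliceosome were tested and none was called by limma, with 1 passing at any fold, and the medians in lines 79, 86 and 87 were -0.07, 0.04 and -0.09. Among them SCNM1 lay above both controls in all 6 libraries, between 40.4 and 51.6 TPM against 39.8 and 36.3 TPM, and ZMAT5 below, between 35.4 and 40.2 TPM against 45.4 and 40.7 TPM, both under the fold limit. None of 27 p53 targets was called, and 2 passed at any fold. MDM2, the ubiquitin ligase of p53, was at 20.1 and 19.7 TPM in the controls, 31.6 and 22.6 TPM in line 79, 50.1 and 24.3 TPM in line 86 and 20.5 and 63.2 TPM in line 87. All 6 values were above both controls, but the 2 libraries of lines 86 and 87 differed widely, and the difference did not exceed the spread (limma adjusted P = 0.90). None of 27 proliferation genes was called and 2 passed at any fold, 22 of them were lower and the median was -0.09. None of 8 epithelial, 3 urothelial and 6 mesenchymal genes and of 1 endothelial gene was called, with 1 mesenchymal gene passing at any fold (limma).

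The batches allowed the same choice to be made on separate libraries. In R17018 alone, 131 genes were at least 1.5-fold higher in all 3 lines than in its control, and 204 were lower. Of the 131, 15 (11.5%) passed the same limit in R18019, against 0.736% of all genes tested. Of the 204, 48 (23.5%) did so, against 0.818% of all genes. The 48 include the 11 genes passing the adjusted P that reached 1 TPM in the controls alone. Those genes entered the tested set through the group where they were high, so they carry no weight in this share. How many others of the 48, and how many of the 15, entered in this way was not counted. Neither share is therefore free of such genes. At 2-fold, 5 of 31 and 19 of 55 passed in both batches. A further 6 genes passed in both batches in opposite directions, among them IER2, an immediate early gene, at 62.0 TPM in the control of R17018 and 4.16 TPM in that of R18019, with its lines between 3.25 and 4.11 TPM in R17018 and between 55.2 and 64.1 TPM in R18019. Of the genes that passed the adjusted P or were among the 12 with the largest change in a direction, MIR503HG did not pass in R18019, and GSTM3 and SNORA77 did not pass in R17018. Genes chosen on all 8 libraries give no such repeat, since both batches entered their choice. The lines are the same in both batches, so this shows that a difference returned in other libraries, not in other lines.

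Whole chromosomes were shifted in single lines. In line 79 the median over the tested genes was -0.35 on chromosome 7 (779 genes) and -0.35 on chromosome 10 (620 genes), where 84.1% and 88.4% of genes were lower than in the controls. On chromosomes 13 and 15 lines 79 and 87 were both lowered, with medians of -0.29 and -0.25 in line 79 and -0.29 and -0.26 in line 87, while line 86 was at 0.11 and 0.08. On chromosome 9 line 86 was at -0.17 and the other lines at 0.08 and 0.05. The shifts returned in both batches, for example at -0.37 and -0.33 for line 79 on chromosome 7. DNA copy number was not measured. Genes with all 6 libraries below both controls made up 7.45%, 7.74% and 7.79% of chromosomes 7, 10 and 15 but 3.99% and 3.91% of chromosomes 13 and 9, against 5.24% of all genes. Genes above made up 1.67%, 1.29%, 1.67%, 1.45% and 4.07% of chromosomes 7, 10, 15, 13 and 9, against 4.62%. LCP1 lies on chromosome 13, BCL2A1 on chromosome 15 and IFIT1 on chromosome 10, while CXCL8, IFI6, BMP4, TUBA1A and SDC2 lie on chromosomes whose medians lay between -0.03 and 0.05 in every line. With the median of its chromosome removed from every library, 24 of the 26 genes that passed the adjusted P still passed. BCL2A1 did not, at an adjusted P of 0.0826 (limma). Of the genes moved by all lines, 36 of the 38 and 68 of the 75 were kept.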

How the data were processed

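The RNA-seq reads of T24 cells were trimmed with fastp, aligned to hg38 with Hisat2 and summarised per gene with Stringtie by the authors, 1 file a library. The deposited files hold TPM, FPKM and signal as mean coverage, without read counts, so depth was estimated from coverage times length and no count test was run. Versions were not given in the sources used here. TPM was used on the log2(TPM+1) scale, for genes reaching 1 TPM in any 2 of the 8 libraries, with limma 3.58.1 (lmFit, eBayes with trend) in R 4.3.3, and in Python 3.11.15 with scipy 1.17.1. Groups came from titles and treatment labels. Genes were called at P under 0.05 and 1.5-fold, and P was also adjusted by Benjamini-Hochberg over all 15768 genes.

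The genes described are U11, the chemokines, MDM2 and TGFB2, which the study names, called or counted members of the 17 lists, and the 12 genes in each direction with the largest change in the nearest line at a mean of at least 5 TPM. Genes passing the adjusted P, DSP, KRT17, ACTG2, IER2 and RNAs at the 1.5-fold limit were named after their values were seen. Members and lists were chosen with earlier results of these data known. On simulated data with 200 of 15768 genes changed 2-fold, 194 were called, as were 116 unchanged genes, and at the adjusted P 168 and 12. The simulated libraries were independent, with the spread inside groups and no difference among lines. In the data 16.0% of genes differed among lines, so these rates may not hold there. Libraries of 1 batch deviated together from their group means (correlations of 0.07 to 0.15 over the 6 pairs of groups), and the pairing comes from the batch in the titles. Annotation was GENCODE release 44 and promoters were from RefSeq. Alternatives were another pseudocount, unit, scaling, filter, variance model and set of controls, the replicate block and leaving out libraries, and, chosen after seeing the data, leaving out lines and removing chromosome medians.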

Additional observations from a re-analysis of the deposited data

Results flagged for a closer look

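Of 64 named genes looked at, 31 differed among the 3 lines by the moderated F test, against 16.0% of all genes tested. The test uses the spread of the controls but not their level, and the adjusted P (limma, Benjamini-Hochberg over all genes tested) is given for each. Among genes above the controls it was 0.0183 for ESM1, 0.022 for BCL2A1, 0.00617 for MYO1D, 0.000543 for SPOCK1, 0.0424 for MIEF1, 0.00315 for FST, 0.0347 for LTBP1, 0.00337 for PTGS2 and 0.0485 for MMP3. In SPOCK1 and ESM1 line 79 was highest, and in MYO1D, FST, PTGS2 and MMP3 line 87 was. Among the CXC chemokines it was 0.0294 for CXCL8, 0.00253 for CXCL6, 0.00433 for CXCL1, 0.0265 for CXCL3, 0.041 for CXCL2 and 0.00487 for CXCL5.

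Among genes of the interferon and HLA lists it was 0.0436 for IFI27, 0.0137 for IFI44L, 0.00128 for IFIT1, 0.0152 for OAS3, 0.00424 for OAS2, 0.00583 for EPSTI1, 0.000134 for BST2, 0.00463 for MX1, 0.0188 for HLA-C and 0.00231 for HLA-B (limma). Line 87 lay nearest the controls in all 10. Among the other genes that fell it was 0.00173 for BMP4, 0.0412 for LCP1, 0.00195 for TIMP3, 0.035 for VCAN, 0.000183 for IGFBP5 and 0.0015 for CD74 (limma). Line 86 lay nearest the controls in BMP4, LCP1, TIMP3 and IGFBP5.

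In 2 genes 1 of the 6 overexpression libraries stood far from the rest. In IRF9 it was the R18019 library of line 87, at 25.9 TPM, whose gap to the next value was 0.672 of the range, and in IRF1 it was the R17018 library of line 86, at 21.1 TPM, with a gap of 0.629 of the range. Both gaps, taken on the log2(TPM+1) scale, exceed Dixon's critical value for 6 values, which chance alone passes in about 1 in 20 groups.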

How the results depend on the processing

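Counts changed with the controls, the filter and the unit. Of 648 values of 30 named genes under the alternatives, 625 kept direction and side of the threshold without the adjusted P. A call was lost in 19 and gained in 4, and none reversed. Of the 30 genes, 12 in each direction were chosen for lying beyond both controls in these libraries, so their direction could hardly change. Of 292 counts and U11 values, 236 stayed within the limits set (1.5 times for a count). With 1 TPM required in every library, 175 genes were called, 13 at the adjusted P (limma), 34 were 1.5-fold below, and 370 and 503 were called in lines 86 and 87. With FPKM, 154 were called, 23 and 37 were 1.5-fold above and below, and 749, 298 and 411 were called in lines 79, 86 and 87. With all 4 untreated libraries, 2 of which differed in make-up as given above, 3233 were called, 2863 of them up-regulated, and 5 passed the adjusted P. With the mean of each line as 1 sample, 7 passed the adjusted P, and 1658 and 1830 lay above and below both controls. Without a filter 1415 lay below. With a pseudocount of 0.1, 17 passed the adjusted P, 87 and 125 were 1.5-fold above and below, and 48 and 74 were higher and lower in both batches. Requiring the adjusted P left 26 called genes, and dropping the fold left 946. With every library 1.5-fold from both controls, 14 lay above and 43 below, and at 2-fold 5 and 19 genes were higher and lower in both batches. Without line 79, 1494 and 1360 lay above and below, and 5 NF-kappa B genes were called. Without line 86, 489 were called, 72 at the adjusted P, and 1477 and 2041 lay above and below. Without line 87, 1314 and 1413 lay above and below, and 27 interferon and 5 HLA genes were called. With single libraries left out, called genes ranged from 264 to 380, genes at the adjusted P from 1 to 23, genes above from 838 to 2005 and below from 949 to 2460, genes 1.5-fold above from 37 to 131 and below from 68 to 157, genes differing among lines from 1222 to 2050, interferon calls from 9 to 21, HLA calls from 2 to 4, NF-kappa B calls from 2 to 4, CXC calls from 4 to 5 and the U11 difference from 12.1 to 24.4 TPM. Leaving out the control of R17018 and that of R18019 gave 1867 and 2005 above, 1864 and 2460 below and 9 interferon calls each. Leaving out any 1 of the 6 overexpression libraries gave 1222 to 1593 genes differing among lines. The replicate block gave 284 called and 3074 differing among lines, and changed no count by over 1.5 times. Beyond the smaller sample where libraries were left out, the cause was not tested. Read counts were not used here, so the depth behind low values is unknown.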

Other observations

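Genes outside the lists also moved in all 3 lines. FUT8, the enzyme of core fucosylation, was at 51.5 and 54.0 TPM in the controls, 104 and 121 TPM in line 79, 75.2 and 88.6 TPM in line 86 and 80.2 and 86.2 TPM in line 87. SCG5, a chaperone of secretory granules, rose in the order of U11, from 19.9 and 19.1 TPM in the controls to 28.1 and 34.0, 38.9 and 46.3, and 59.2 and 67.4 TPM in lines 79, 86 and 87. GABBR2, a subunit of the GABA-B receptor, was at 17.3 and 18.3 TPM in line 79 and between 3.87 and 5.66 TPM in the other lines, against 2.57 and 2.26 TPM. H2AFY2, the histone variant macroH2A2, was at 17.3 and 19.4 TPM in the controls, 2.46 and 2.66 TPM in line 79, 10 and 9.70 TPM in line 86 and 0.669 and 0.360 TPM in line 87. MEST, an imprinted gene, was at 15.6 and 14.9 TPM in the controls, 5.02 and 6.80 TPM in line 79, 8.56 and 9.18 TPM in line 86 and 1.63 and 1.45 TPM in line 87. These 5 genes were named after their values were seen, and all were called in the comparison of 6 against 2 libraries without passing the adjusted P (limma).

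In some genes libraries of 1 line lay at very different levels. CHST14 was at 26.0 and 25.7 TPM in controls, compared with 16.9 and 15.9, 1.37 and 25.1, and 1.99 and 17.7 TPM in lines 79, 86 and 87. MEX3C was at 24.2 and 6.20 TPM in the controls of R17018 and R18019, whereas the lines lay between 5.52 and 8.10 TPM in R17018 and between 26.8 and 30.2 TPM in R18019. With 2 controls, such a gene can lie beyond both by the level of a few libraries. These genes too were named after their values were seen.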
